A study of Mus musculus with 21 samples.

Results

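The 10 genes described here are the 3 sensors of the unfolded protein response and the ATF4-CHOP arm that lies downstream of one of them. They are the sensors Ern1, Atf6 and Eif2ak3, the transcription factors Atf4 and Ddit3, the phosphatase subunit Ppp1r15a, and the response genes Trib3, Chac1, Asns and Sesn2. They were taken by gene name from the table of read counts, which lists 53801 genes. All 10 were among the 20256 genes with enough reads to be tested. Bulk RNA-seq was performed on IgA+ plasma cells (IgA+ PCs), sorted as CD138+ IgA+ cells from the small intestine of 21 mice on a C57BL/6 background, with 1 library from each mouse. Control mice were Mb1Cre-/- x Arntlfl/fl (6 at ZT0 and 6 at ZT12) and knockout mice were Mb1Cre+/- x Arntlfl/fl (4 at ZT0 and 5 at ZT12), so that both genotypes carry the floxed Arntl allele and only the knockout carries Cre. ZT0 is the time of lights on in a 12-hour light:12-hour dark day and ZT12 the time of lights off. Cre is expressed from the Mb1 (Cd79a) locus, which is active from early in B cell development, so that deletion of Arntl, which encodes the clock factor Bmal1, is directed to the whole B lineage and not to PCs alone. Ages and sexes were not given in the sources used here. The titles give the genotype used here. For 8 of 9 knockout mice the separate genotype entry reads Mb1Cre-/- x Arntlfl/fl instead.

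Plasma cells secrete antibody at a very high rate, and their endoplasmic reticulum (ER) must fold that load. IRE1 (Ern1), ATF6 and PERK (Eif2ak3) span the ER membrane and sense unfolded protein. IRE1 starts the splicing of Xbp1 mRNA, ATF6 is cut in the Golgi to release a transcription factor, and PERK phosphorylates the initiation factor eIF2alpha, which slows protein synthesis while allowing ATF4 to be translated. ATF4 is also reached from eIF2alpha kinases that sense amino acid shortage, haem shortage or viral RNA, and it turns on genes for amino acid supply, for redox balance and for CHOP (Ddit3). Much of this signalling acts through phosphorylation, splicing and translation, which counts of mRNA do not measure.

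ATF4 with a C/EBP partner binds composite elements with the core TGATGNAA, and this core was searched on both strands of RefSeq promoter windows that run from 250 bases before to 50 bases after the annotated start (GRCm38.p6). A window was given for 9 of the 10 genes, all but Atf6. The core was found in the windows of Chac1, Trib3 and Asns, that is in 3 of 9 windows (33.3%), against 3.97% of 32851 windows of all genes. The other ATF4 partners and targets held it in 9 of 42 windows (21.4%). The 3 stretches are shown because they are where the genes share the letters of the element. The capitals mark the core, on either strand, and each sequence reads 5′ to 3′ in the direction of its gene.
Chac1: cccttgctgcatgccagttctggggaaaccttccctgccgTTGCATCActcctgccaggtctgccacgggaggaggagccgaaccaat
Trib3: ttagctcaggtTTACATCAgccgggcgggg
Asns: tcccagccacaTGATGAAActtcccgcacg
The Chac1 stretch lies at chr2:119351009-119351096 on the plus strand, with the core at -193 from the RefSeq start. The Trib3 stretch lies at chr2:152344028-152344057 on the minus strand, with the core at +15, and the Asns stretch at chr6:7693214-7693243 on the minus strand, with the core at -23. The start of these genes in the count table is another one, from which the cores lie at -180 for Chac1, -14 for Trib3 and +23 for Asns, so that the side of the start on which the core falls depends on the annotation for Trib3 and Asns. The palindromic E-box CACGTG, a site that Bmal1 and its partner CLOCK can bind, was in 0 of the 9 windows and in 7.15% of all windows. The consensus of the ER stress element (ERSE), a site for ATF6 with NF-Y, was in 0 of the 9 windows and in 0.119% of all windows. A match is a description of letters in a short window, and the absence of a match says only that those letters are not in it.

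The libraries held 14471018 to 22785835 counts each, and immunoglobulin genes took 51.5% to 63.6% of them. In 4 libraries that share was over 59%, namely control ZT12 replicates 2, 4 and 5 and knockout ZT0 replicate 3. Arntl lay at 6.83 to 8.36 CPM (the count of a gene relative to the scaled library total) in control cells at ZT0 and at 4.08 to 6.47 CPM in knockout cells at ZT0, and at 4.00 to 5.56 and 3.11 to 4.93 CPM at ZT12, where the genotypes overlapped. These are counts over the whole gene, also over exons that a deletion would leave. Cd79a, whose locus carries Cre, was at 386 to 586 CPM in control libraries and at 163 to 276 CPM in knockout libraries, without overlap between the genotypes, which speaks to the Cre allele only. The 7 plasma cell markers were present in all libraries, with Igha at 235061 CPM or more and Sdc1 at 462 CPM or more. A list of 15 immediate early and heat shock genes known to respond to enzymatic tissue dissociation summed to 3107 to 9848 CPM, with medians of 4687 and 7331 CPM in control cells at ZT0 and ZT12 and of 5201 and 4432 CPM in knockout cells. Of 12 epithelial markers, 5 (Krt20, Cdh1, Fabp1, Fabp2 and Alpi) were at 0 in at least 1 library, and the list summed to 55.0 to 240.8 CPM apart from control ZT12 replicate 5 (834 CPM) and knockout ZT12 replicate 5 (500.3 CPM). All 12 had positive log2 fold changes from ZT0 to ZT12 in both genotypes, with medians of 2.42 in control and 2.45 in knockout cells. By edgeR 0 of 12 passed in control cells, with 6 of 12 at an unadjusted p under 0.05 against 18.1% of all genes. DESeq2 called Epcam and Krt18 in control cells, and 1052 of all 20256 genes. The summed lists of T cell (21.9 to 49.8 CPM), myeloid (21.3 to 118 CPM) and other B cell markers (13.0 to 31.1 CPM) were low in every library. In bulk samples fewer cells of a type and less RNA per cell cannot be told apart.

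Compared per kilobase of gene length, Atf4 was the most abundant of the 10 transcripts and Trib3 the least. Atf4 lay at 174 ± 35.3 CPM per kb (SD, n = 21), above 98.8% of the genes tested. Eif2ak3 (60.7 ± 9.63) and Ppp1r15a (60.7 ± 14.1) followed, then Atf6 (37.4 ± 7.19), Ern1 (25.8 ± 1.77), Ddit3 (20.7 ± 6.82) and Asns (20.4 ± 4.44 CPM per kb). Chac1 (9.96 ± 3.59), Sesn2 (3.34 ± 0.687) and Trib3 (0.526 ± 0.233 CPM per kb) were lower, and Trib3 lay above 43.3% of the genes tested. Eif2ak3 and Ppp1r15a could not be ordered, since Eif2ak3 was the higher in 15 of 21 libraries, nor could Ddit3 and Asns, where Ddit3 was the higher in 7 of 21. Ern1 was above Ddit3 in 16 and below Atf6 in 19 of the 21 libraries. All other neighbours in the order kept their order in 21 of 21 libraries. Among the sensors, Eif2ak3 therefore had the highest level per length and Ern1 the lowest, as well as the smallest spread between mice, with a coefficient of variation of 6.87% over the 21 libraries against 15.9% for Eif2ak3 and 19.2% for Atf6.

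**Figure D1:**
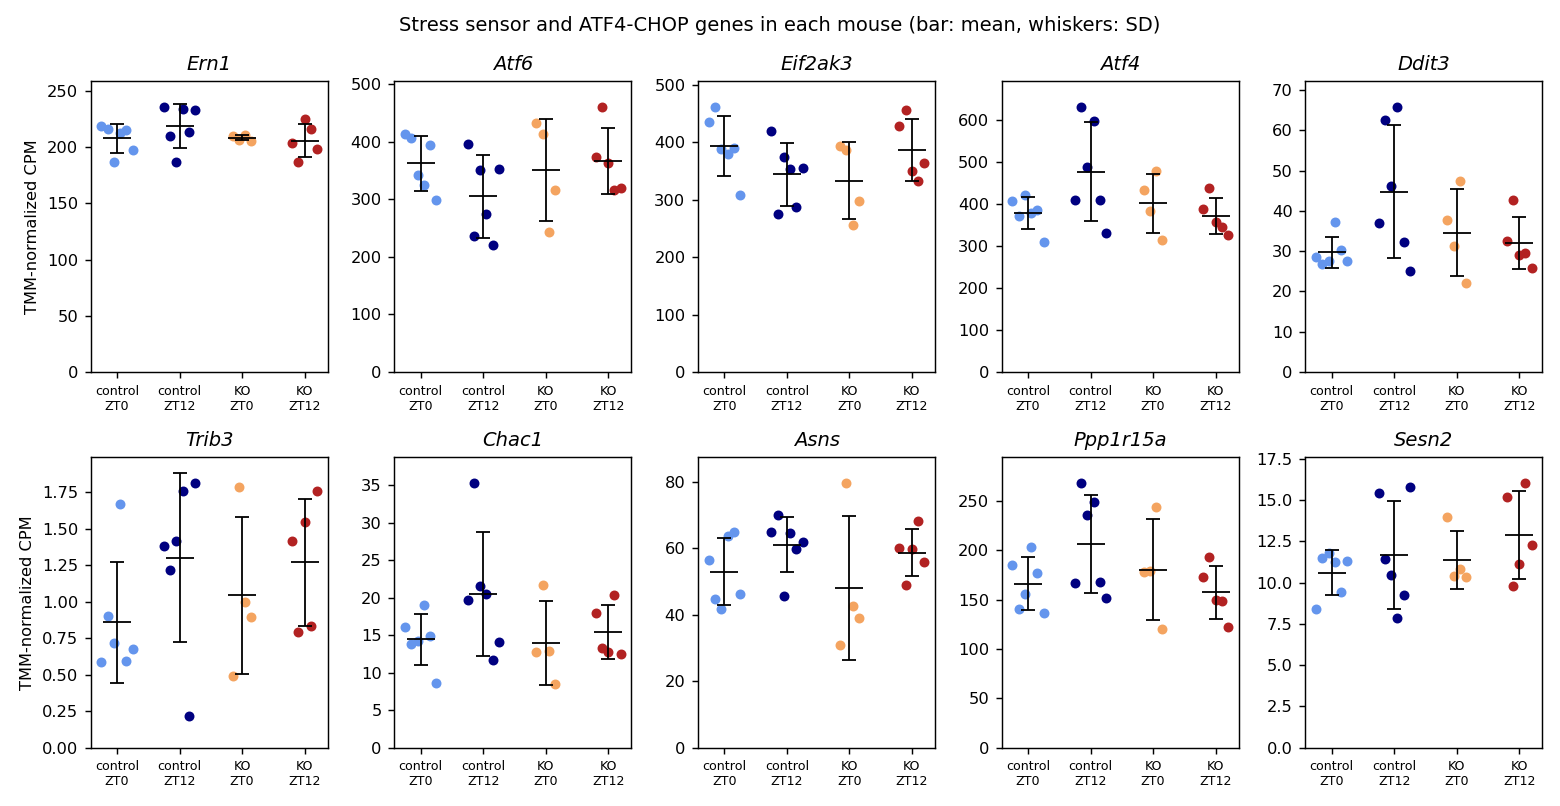
Normalized CPM (vertical axes, from 0) of each of the 10 genes in each mouse by genotype and time, with 1 point per mouse, a bar at the group mean and whiskers of 1 SD. The groups overlap in every panel, and for Atf4 and Ddit3 2 control ZT12 mice sit above all others, at 629 and 596 CPM for Atf4 and at 62.5 and 65.7 CPM for Ddit3.

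Ern1 (ENSMUSG00000020715, chr11:106394650-106487852, minus strand) encodes IRE1, the kinase and endoribonuclease that cuts Xbp1 mRNA. Its level was 187 to 219 CPM (median 214) in control cells at ZT0 and 187 to 235 CPM (median 224) at ZT12. In knockout cells at ZT0 it was 209.9, 207, 210.5 and 206 CPM, and at ZT12 it was 204, 187, 225, 216 and 199 CPM. The 4 groups covered nearly the same range, and their means lay between 206 ± 14.9 (SD, n = 5) and 219 ± 19.3 CPM (SD, n = 6).

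Atf6 (ENSMUSG00000026663, chr1:170704674-170867771, minus strand) encodes the membrane-bound transcription factor that raises ER chaperones. It was at 299 to 413 CPM (median 368) in control cells at ZT0 and at 220.1 to 397 CPM (median 313) at ZT12. Knockout cells at ZT0 held 432, 414, 243 and 316 CPM, and those at ZT12 held 373, 459.6, 363, 317 and 320.5 CPM. The 4 lowest libraries were control ZT12 replicates 5, 2 and 4 and knockout ZT0 replicate 3, which are the 4 with an immunoglobulin share over 59%. Every knockout ZT12 library was above the median of the control ZT12 libraries, with overlapping ranges.

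Eif2ak3 (ENSMUSG00000031668, chr6:70844515-70905245, plus strand) encodes PERK, the eIF2alpha kinase of the ER. Its level was 307 to 460.1 CPM (median 389) in control cells at ZT0 and 275 to 419 CPM (median 354) at ZT12. In knockout cells at ZT0 it was 392, 387, 256 and 297 CPM, and at ZT12 it was 429, 456, 349, 333 and 363 CPM. Of those 4 libraries, knockout ZT0 replicate 3 and control ZT12 replicates 2 and 5 were again the lowest, and the groups overlapped. Eif2ak3 shares 485 exon bases with Gm43292 on the opposite strand, a gene with 41 to 114 counts per library, and whether reads were counted by strand is not given in the sources used here.

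Atf4 (ENSMUSG00000042406, chr15:80255184-80257541, plus strand) encodes the transcription factor at the centre of this response, and its product is set largely by translation of the mRNA counted here. Control cells held 310.1 to 421 CPM (median 382) at ZT0 and 331 to 629 CPM (median 448) at ZT12. Knockout cells at ZT0 held 432, 382, 478 and 313 CPM, and those at ZT12 held 389, 437, 358, 346 and 325 CPM. Control ZT12 replicates 2 and 4 were the 2 highest of the 21 libraries, and the lowest ZT12 control lay inside the ZT0 range, so that the groups overlapped.

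Ddit3 (ENSMUSG00000025408, chr10:127290774-127296288, plus strand) encodes CHOP, a target of ATF4 that can promote cell death under lasting stress. Its level was 26.9 to 37.2 CPM (median 28.1) in control cells at ZT0 and 25.1 to 65.7 CPM (median 41.5) at ZT12. In knockout cells at ZT0 it was 37.9, 31.2, 47.4 and 22.0 CPM, and at ZT12 it was 32.6, 42.6, 29.1, 29.6 and 25.7 CPM. The control ZT12 libraries ran from below every ZT0 control to well above them, with replicates 2 and 4 highest again, and knockout ZT0 replicate 3 came next among all libraries. Ddit3 shares 68 exon bases with Mars on the opposite strand, a gene with 1216 to 2341 counts per library against 402 to 1029 for Ddit3, so part of either count could come from the other if strand was not used. It also shares 105 exon bases with a second annotated gene of the same name on its own strand, which had 0 counts in every library. How reads in shared bases were counted is not given in the sources used here.

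Ppp1r15a (ENSMUSG00000040435, chr7:45522916-45526268, minus strand) encodes GADD34, which brings a phosphatase to eIF2alpha and so ends the block on translation. It was at 136 to 203 CPM (median 166) in control cells at ZT0 and at 152 to 268 CPM (median 202) at ZT12. Knockout cells at ZT0 held 178, 179, 244 and 119.7 CPM, and those at ZT12 held 173, 193, 149, 149 and 122 CPM. The 4 highest libraries were control ZT12 replicates 2, 4 and 3 and knockout ZT0 replicate 3, as for Atf4 apart from the order, and the groups overlapped.

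Trib3 (ENSMUSG00000032715, chr2:152337422-152344032, minus strand) encodes a pseudokinase that restrains ATF4 and CHOP. It rested on 3 to 31 counts per library. Its level was 0.589 to 1.67 CPM (median 0.699) in control cells at ZT0 and 0.218 to 1.81 CPM (median 1.40) at ZT12. In knockout cells at ZT0 it was 0.495, 1.79, 1.00 and 0.895 CPM, and at ZT12 it was 1.42, 0.791, 1.55, 0.837 and 1.76 CPM. The lowest value, in control ZT12 replicate 5, comes from 3 counts, which is 0.193 CPM of all counts with a Wilson 95% interval of 0.0657 to 0.568. That interval covers counting error only, and the groups overlapped.

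Chac1 (ENSMUSG00000027313, chr2:119351229-119354381, plus strand) encodes an enzyme that degrades glutathione and is a strong target of ATF4. Control cells held 8.64 to 19.0 CPM (median 14.5) at ZT0 and 11.7 to 35.2 CPM (median 20.1) at ZT12. Knockout cells at ZT0 held 12.7, 21.7, 12.9 and 8.50 CPM, and those at ZT12 held 18.0, 13.3, 12.8, 20.3 and 12.5 CPM. Control ZT12 replicate 2 stood above the other 20 libraries, and the remaining values overlapped between the groups.

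Asns (ENSMUSG00000029752, chr6:7675169-7693254, minus strand) encodes asparagine synthetase, the classical gene of the amino acid response. Its level was 41.9 to 65.0 CPM (median 51.4) in control cells at ZT0 and 45.7 to 70.2 CPM (median 63.3) at ZT12. In knockout cells at ZT0 it was 31.0, 79.7, 42.6 and 39.2 CPM, and at ZT12 it was 60.3, 49.0, 59.9, 68.3 and 55.8 CPM. The highest and the lowest of the 21 libraries were both knockout ZT0 mice, replicates 2 and 1, and that group had a coefficient of variation of 44.9% against 12.0% to 19.0% in the other 3.

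Sesn2 (ENSMUSG00000028893, chr4:132492032-132510501, minus strand) encodes sestrin 2, a leucine sensor that restrains mTORC1. It was at 8.42 to 11.8 CPM (median 11.3) in control cells at ZT0 and at 7.85 to 15.8 CPM (median 10.9) at ZT12. Knockout cells at ZT0 held 14.0, 10.4, 10.8 and 10.3 CPM, and those at ZT12 held 15.2, 9.80, 11.2, 16.0 and 12.3 CPM. The medians of the control groups differed by less than the spread within either, and the groups overlapped.

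In control cells, which ask whether the response differs between lights on and lights off, none of the 10 genes passed the test. This was 0 of 10, where 1.73% of all genes tested passed (350 of 20256) at an adjusted p below 0.05 by edgeR's quasi-likelihood test with Benjamini-Hochberg adjustment over all genes. DESeq2 called 1 of the 10, Ddit3, and 1052 of the 20256 genes. The unadjusted p was under 0.05 for 2 of 10, Atf4 and Ddit3, and for 18.1% of all genes. Both were higher at ZT12, as were 9.19% of all genes at that level. For 0 of 10 genes were the groups free of overlap, against 1.6% of all genes. The median log2 fold change, ZT12 against ZT0, was 0.26 over the 10 genes and 0.0063 over all genes, with 8 positive and 2 negative values.

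The values of the ATF4-CHOP arm were positive and those of Atf6 and Eif2ak3 negative. For Ddit3 the log2 fold change was 0.59 (SE 0.21, 95% interval 0.14 to 1.04, adjusted p 0.162 by edgeR), from 29.7 ± 3.88 CPM at ZT0 to 44.8 ± 16.5 CPM at ZT12 (SD, n = 6 each), and 5 of 6 ZT12 mice were above the ZT0 median. DESeq2 gave 0.62 (SE 0.21, adjusted p 0.0407). For Atf4 it was 0.33 (SE 0.13, adjusted p 0.190 by edgeR), with 5 of 6 mice above the ZT0 median. Chac1 (0.50, SE 0.25), Trib3 (0.60, SE 0.41), Ppp1r15a (0.31, SE 0.16), Asns (0.21, SE 0.17) and Sesn2 (0.15, SE 0.16) had positive values that did not pass, with adjusted p from 0.300 to 0.671 by edgeR. Atf6 (-0.25, SE 0.15) and Eif2ak3 (-0.19, SE 0.13) each had 1 of 6 ZT12 mice above the ZT0 median, and Ern1 (0.074, SE 0.082) had the narrowest interval, -0.094 to 0.24. With raw library size as the only scaling, which leaves in the immunoglobulin share, Ern1 (-0.13), Asns (-0.0091) and Sesn2 (-0.045) turned negative, and the median of all genes was -0.20.

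Libraries that stood apart moved with these values. Without the 4 libraries with an immunoglobulin share over 59%, the log2 fold change of Ddit3 was 0.29 (adjusted p 0.718 by edgeR), that of Atf4 was 0.11, that of Ppp1r15a was 0.16 and that of Atf6 was 0.020. With the summed dissociation list as a covariate they were 0.26 for Ddit3, 0.14 for Atf4 and 0.065 for Ppp1r15a. With the immunoglobulin share as a covariate they were 0.20, 0.053 and 0.035. The summed epithelial list as a covariate instead raised them above the main fit, to 0.64, 0.37 and 0.38. The unadjusted p by edgeR was under 0.05 for 4 members with the epithelial list and for 0 with the immunoglobulin share. It was so for 1 member with the dissociation list and for 1 without the 4 libraries. Over all genes it was so for 2674 with the epithelial list and for 1648 with the immunoglobulin share. It was so for 2467 with the dissociation list and for 1774 without the 4 libraries. In the main fit 3657 of all genes stood at that level. The part of these libraries in the result was not tested beyond these fits.

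In knockout cells the same comparison also called 0 of 10 genes, where 0% of all genes tested passed by edgeR and 47 genes, none of the 10 among them, passed by DESeq2. The unadjusted p was under 0.05 for 0 of 10 and for 8.01% of all genes. The median over the 10 genes was 0.10, with 6 positive values. Asns (0.29, SE 0.20) had all 5 ZT12 mice above the ZT0 median and Eif2ak3 (0.21, SE 0.15) had 4 of 5. Ddit3 (-0.12, SE 0.25, 95% interval -0.64 to 0.40), Atf4 (-0.11, SE 0.15) and Ppp1r15a (-0.20, SE 0.19) each had 1 of 5 above it. For 0 of 10 genes were the groups free of overlap, against 2.63% of all genes.

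Genotype was compared at each time. At ZT0 the knockout and the control differed in 0 of 10 genes, where 0.00987% of all genes passed by edgeR (2 of 20256, and 5 by DESeq2, none of the 10), and the unadjusted p was under 0.05 for 0 of 10 and for 4.9% of all genes. The smallest unadjusted p of the 10 belonged to Eif2ak3, with a log2 fold change of -0.24 (SE 0.14, adjusted p 0.926 by edgeR), and the median over the 10 was 0.043. At ZT12 0 of 10 genes were called, where 0.0148% of all genes passed by edgeR (3 of 20256, and 8 by DESeq2, none of the 10). The unadjusted p was under 0.05 for 3 of 10, all lower in the knockout, and for 8.83% of all genes, with 4.58% lower. The groups overlapped for all 10, and at ZT0 too, against groups free of overlap in 0.38% and 0.977% of all genes. These were Atf4 (-0.36, SE 0.14), Ddit3 (-0.49, SE 0.23) and Ppp1r15a (-0.39, SE 0.17), each with an adjusted p of 0.562 by edgeR. For Atf4 and Ppp1r15a 0 of 5 knockout mice were above the control median, and for Ddit3 1 of 5 was. The 95% interval for Ddit3 ran from -0.96 to -0.015. The 3 values were -0.14, -0.18 and -0.23 without the 4 libraries with an immunoglobulin share over 59%, and -0.10, -0.042 and -0.039 with the dissociation list as a covariate.

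**Figure D2:**
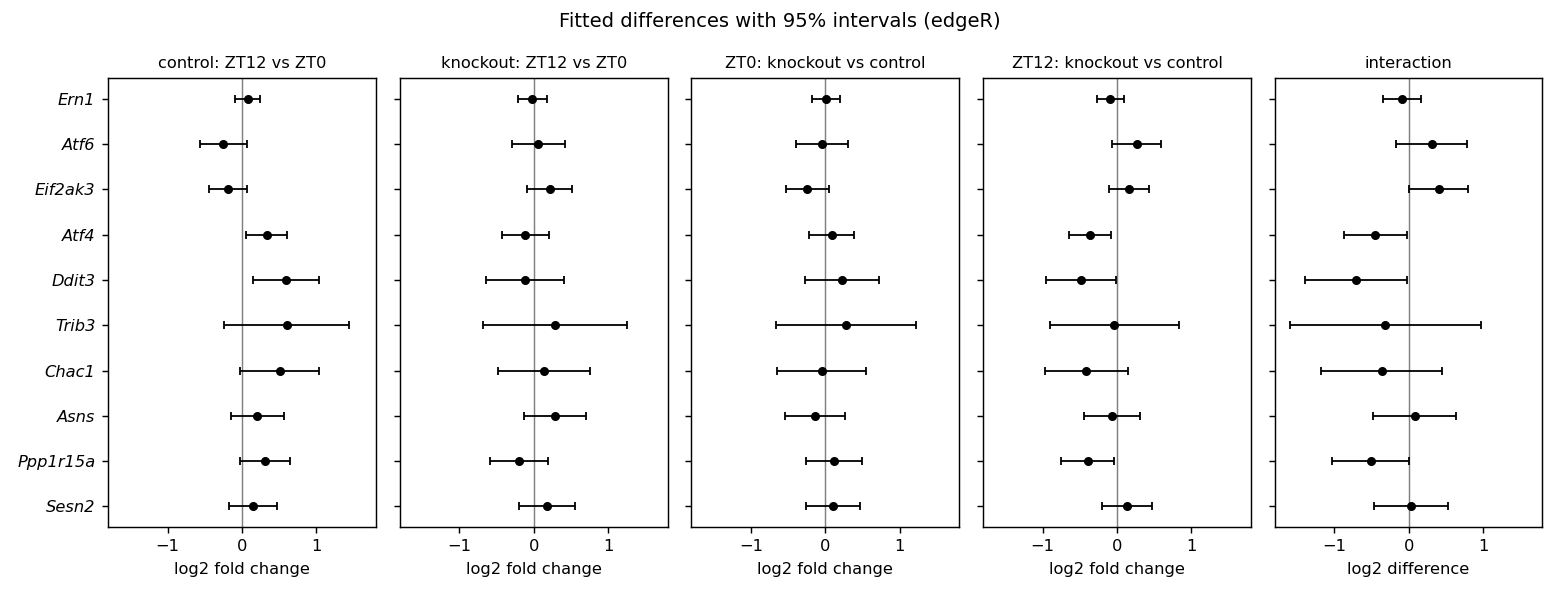
Fitted log2 differences of the 10 genes (points) with 95% intervals (bars) for the 4 comparisons between groups and for the interaction, on a shared horizontal axis in log2 units with 0 marked. Most intervals cross 0, and those that do not, such as Ddit3 in control mice at 0.14 to 1.04, belong to genes that did not pass after adjustment over all genes.

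The interaction tested whether the difference between the times of day itself differed between genotypes. It called 0 of 10 genes and 0% of all genes tested by edgeR, and 4 of all genes by DESeq2, none of them among the 10. The unadjusted p was under 0.05 for 3 of 10 and for 10.8% of all genes. These were Ddit3 (-0.71, SE 0.33), Atf4 (-0.45, SE 0.20) and Eif2ak3 (0.41, SE 0.19), with adjusted p of 0.455, 0.452 and 0.455 by edgeR, and Ppp1r15a followed with -0.51 (SE 0.25). A negative value means a log2 fold change from ZT0 to ZT12 that was lower in the knockout. A difference between genotypes in the time of day values of Ddit3 or Atf4 was therefore not established, and the 95% intervals were wide, -1.39 to -0.022 for Ddit3 and -0.87 to -0.027 for Atf4. The value for Ddit3 was -0.22 without the 4 libraries with an immunoglobulin share over 59% and -0.053 with the dissociation list as a covariate.

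Between mice of the same group the 10 genes did not vary as 1 unit. Deviations of log2 CPM from the group means over the 21 mice were set against each other as a description. The points share library depth, scaling and the immunoglobulin share. They also keep any difference between successive runs of columns in the count table, described with the replicate numbers at the end. The Atf4 values from 310 to 358 CPM all lie in the last run. The part of these runs in r was not tested. Atf4, Ddit3 and Ppp1r15a formed one set, with Pearson r of 0.91 for Atf4 and Ddit3 (Spearman rho 0.85, r 0.86 without the 2 farthest mice), 0.92 for Ddit3 and Ppp1r15a (rho 0.93) and 0.88 for Atf4 and Ppp1r15a (rho 0.86). Atf6 and Eif2ak3 formed another, with r = 0.92 (rho 0.93, 0.90 without the 2 farthest). These sets were not related to each other, with r between -0.16 and 0.046 over the 6 pairs that cross them. PERK and the mRNA of its downstream factor Atf4 were such a pair (r = 0.046).

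**Figure D3:**
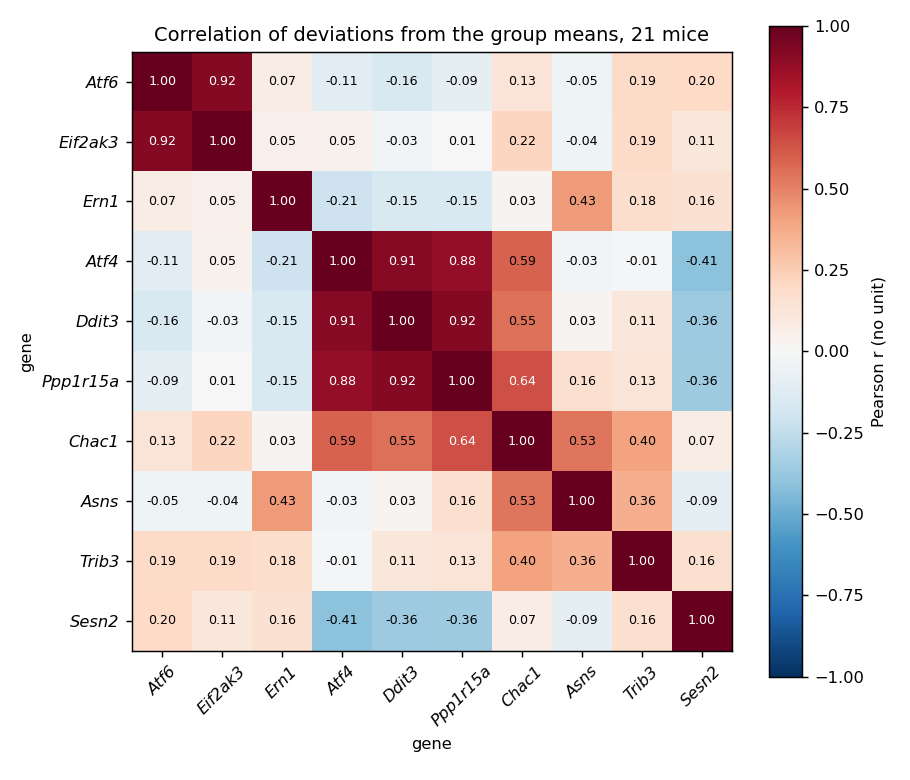
Pearson r (colour and number) between each pair of the 10 genes, computed on the deviations of log2 CPM from the group means in 21 mice. Atf6 with Eif2ak3 (0.92) and Atf4 with Ddit3 (0.91) and Ppp1r15a (0.88) form separate blocks, and Ern1, Trib3, Asns and Sesn2 stand largely outside both.

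The ATF4 targets differed in how they followed the Atf4 mRNA. Chac1 was intermediate, with r = 0.59 to Atf4 (rho 0.48), 0.64 to Ppp1r15a and 0.53 to Asns. Asns (r = -0.029) and Trib3 (-0.011) showed no relation to Atf4. Both hold the core of the ATF4 element in the windows above, and Trib3 carries a large counting error. Sesn2 was negative to Atf4 (-0.41).

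**Figure D4:**
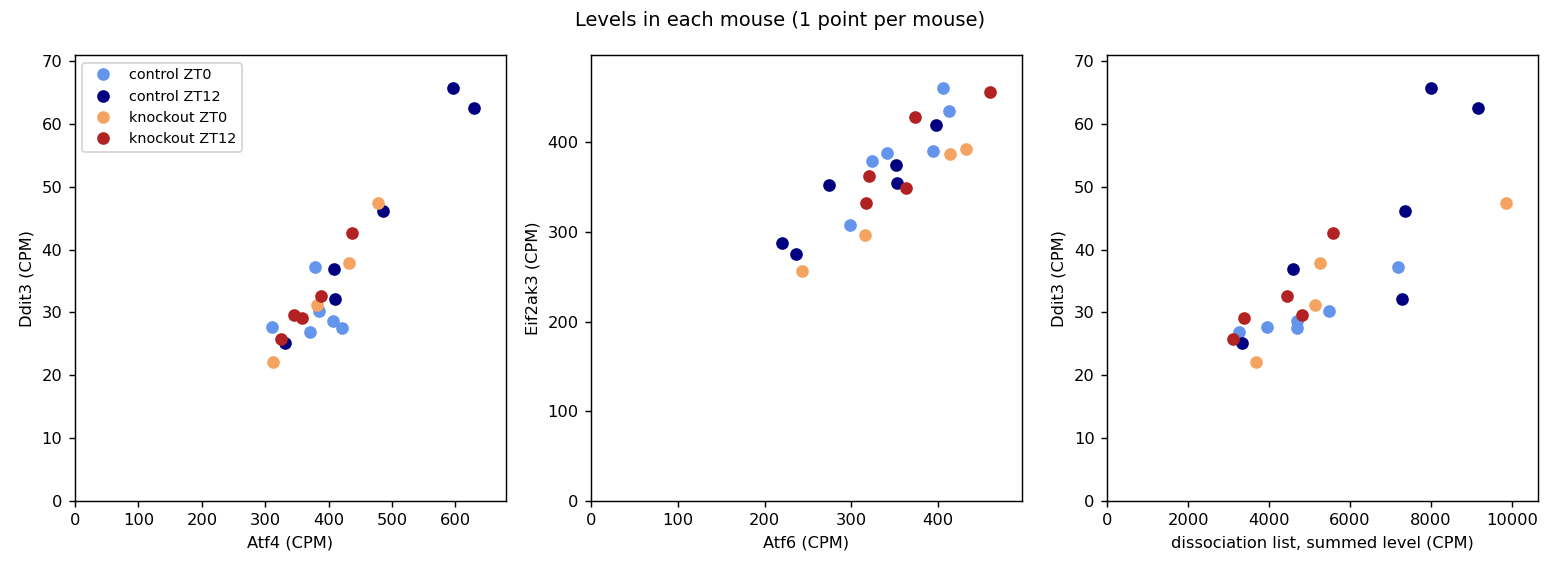
CPM of Ddit3 against Atf4, of Eif2ak3 against Atf6, and of Ddit3 against the summed CPM of the 15 dissociation genes, with 1 point per mouse coloured by group and all axes from 0. The 3 highest Ddit3 values (65.7, 62.5 and 47.4 CPM) belong to libraries with 8009, 9166 and 9848 CPM of dissociation genes, and the control ZT12 library with 7295 CPM of them had 32.2 CPM of Ddit3.

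The set of Atf4, Ddit3 and Ppp1r15a moved with the 15 dissociation genes and with a trend along gene length. With the summed dissociation list r was 0.88 for Ppp1r15a (rho 0.87), 0.83 for Ddit3 (rho 0.83) and 0.77 for Atf4 (rho 0.71), against 0.47 for Chac1 and between -0.42 and 0.13 for the other 6. Of these 15 genes, 0 passed the test in any comparison by edgeR. By DESeq2 1 did, Zfp36 in control cells, where 1052 of all 20256 genes passed by DESeq2. In control cells 4 of 15 had an unadjusted p under 0.05 by edgeR, all positive, against 9.19% of all genes. The median log2 fold change of the 15 was 0.53 in control cells and -0.50 in knockout cells. In knockout cells 4 of 15 were positive, among them Hspa1a (3.00, SE 1.35) and Hspa1b (3.09, SE 1.35). There 5 of 15 were lower and 2 higher at an unadjusted p under 0.05 by edgeR, against 8.01% of all genes. Junb (-0.64, SE 0.28) and Nr4a1 (-0.50, SE 0.21) were among the lower. For genotype at ZT12 the median was -0.61, with 10 of 15 at an unadjusted p under 0.05 by edgeR. All 10 were negative, against 4.58% of all genes. The interaction had a median of -0.76 with 9 of 15 at that level, all negative, where 10.8% of all genes stood in either direction. With the slope of a library along gene length r was -0.78 for Atf4, -0.78 for Ddit3 and -0.76 for Ppp1r15a, and 0.62 for Sesn2. Genes of 1713 to 2937 bases make up the first set and genes of 9231 and 6026 bases are Atf6 and Eif2ak3. For Atf6 and Eif2ak3 r was 0.53 and 0.42, and for Ern1, of 8173 bases, it was 0.32. Among other short genes r was -0.28 for Chac1 (1637 bases), 0.023 for Trib3 (2125 bases) and -0.038 for Asns (2735 bases). With the length trend removed, the unadjusted p by edgeR was under 0.05 for 3 of 10 genes in control mice. It was so for 3 of 10 for genotype at ZT12 and for 1 of 10 in the interaction. Of all 20256 genes, 3546, 1678 and 2085 stood at that level in this fit. With the immunoglobulin share r was 0.61 for Atf4 and -0.69 for Atf6. The part of digestion, RNA quality or the share in these levels was not tested.

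The genes most like each member over the 21 mice were sought among 10130 other genes by the same r. For Ddit3 the first was Aldh1l2 (0.98, rho 0.97), a mitochondrial folate enzyme, ahead of 2410006H16Rik (0.96) and Snx8 (0.94). Atf4 was most like Cryba4 (0.95), Tulp3 (0.93) and Ier5 (0.93), and Ppp1r15a most like Rhob (0.93), 2410006H16Rik (0.92) and Tulp3 (0.92). Eif2ak3 was the first for Atf6, and Atf6 the first for Eif2ak3, each followed by Tbc1d15 (0.91 and 0.91). Asns had the ER gene Sdf2l1 among its 3 nearest (0.81, after Hid1 at 0.83 and Qpctl at 0.81), and Trib3 had Prpf4 (0.74), Glipr2 (0.73) and Mthfd2 (0.73), the last another mitochondrial folate enzyme, with r of 0.43, 0.63 and 0.52 without the 2 farthest mice. Chac1 was nearest to Mul1 (0.86) and Sesn2 to Git2 (0.86). Ern1 was nearest to the immunoglobulin segment Ighv1-55 (0.79).

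The rest of the pathway was read from lists of the other genes. Of 15 further genes of the eIF2alpha machinery, 0 passed in any comparison by edgeR. DESeq2 called 4 of them in control cells, Eif2b4 and Eif2b5 as higher at ZT12 and Eif2ak2 and Eif2ak4 as lower. There it called 1052 of all 20256 genes. In control cells the kinases Eif2ak4, which senses amino acid shortage, and Eif2ak2, which senses double-stranded RNA, had log2 fold changes of -0.44 (SE 0.12, adjusted p 0.0607 by edgeR) and -0.52 (SE 0.15, adjusted p 0.0782 by edgeR). A positive value with an unadjusted p under 0.05 by edgeR was seen there for 5 of the 15, against 9.19% of all genes. For Eif2ak4 the interaction was 0.55 (SE 0.19, adjusted p 0.442 by edgeR). Of 11 partners of the sensors, 1 rose in control cells at ZT12 by edgeR, where 1.73% of all genes passed. It was Rtcb, the ligase that joins the cut Xbp1 mRNA (0.46, SE 0.11, adjusted p 0.0398 by edgeR). Its level was 33.8 ± 2.27 CPM at ZT0 and 46.6 ± 9.87 CPM at ZT12 (SD, n = 6 each). Xbp1 itself was at 2028 ± 90.3 and 2471 ± 383 CPM, and did not pass by edgeR (0.28, SE 0.10, adjusted p 0.143), whereas DESeq2 called it.

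Of 39 other ATF4 partners and targets 38 could be tested, and 3 rose in control cells at ZT12, where 1.73% of all genes passed by edgeR. The list median was 0.16 against 0.0063 over all genes, with 30 positive values. In control cells 11 of 38 had an unadjusted p under 0.05 by edgeR, all higher at ZT12. At that level stood 18.1% of all genes, with 9.19% higher at ZT12. In knockout cells 0 of 38 passed by edgeR, with a median of 0.13 against 0.0055 over all genes and 26 positive values. There 7 of 38 had an unadjusted p under 0.05 by edgeR, 6 of them higher at ZT12, against 8.01% of all genes. The 3 that rose in control cells were Shmt2, a mitochondrial serine enzyme (0.44, SE 0.11, adjusted p 0.0469 by edgeR), Sars, the seryl-tRNA synthetase (0.44, SE 0.11, adjusted p 0.0426 by edgeR), and Vegfa, an angiogenic factor (3.40, SE 0.79, adjusted p 0.0414 by edgeR). Shmt2 was at 94.7 ± 13.8 and 128 ± 23.1 CPM and Sars at 87.8 ± 9.58 and 119 ± 25.3 CPM (SD, n = 6 each). Vegfa was low and uneven, at 0.589 to 1.77 CPM (median 0.778) at ZT0 and at 1.70 to 32.6 CPM (median 6.25) at ZT12. In knockout cells none of these 3 passed, with 0.14 for Shmt2, 0.13 for Sars and -1.59 for Vegfa. None of them differed between genotypes by the interaction with edgeR, whereas DESeq2 called Vegfa (-5.07, adjusted p 0.0177). Vegfa was low and uneven in knockout cells too. It was at 0.795 to 12.2 CPM (median 2.89, n = 4) at ZT0 and at 0.451 to 2.17 CPM (median 1.70, n = 5) at ZT12. The amino acid transporter subunit Slc7a5 had 0.54 in knockout cells (SE 0.15, adjusted p 0.357 by edgeR). DESeq2 also called Nars, the asparaginyl-tRNA synthetase, in control cells (0.31, SE 0.11, adjusted p 0.142 by edgeR). It called the ER oxidase Ero1l as higher at ZT12 in knockout cells (0.44, SE 0.11, adjusted p 0.289 by edgeR) and the glutamine transporter Slc1a5 as lower in the knockout at ZT12 (-0.42, SE 0.094, adjusted p 0.379 by edgeR).

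The 4 calls of Rtcb, Shmt2, Sars and Vegfa lay near the threshold. With 1 library left out at a time Rtcb kept its call in 12 of 21 fits, Sars in 10, Vegfa in 8 and Shmt2 in 6, while the log2 fold changes ran from 0.35 to 0.52, 0.33 to 0.50, 2.49 to 3.71 and 0.34 to 0.51. Without the 4 libraries with an immunoglobulin share over 59% none was called, at 0.34 for Rtcb, 0.30 for Sars, 2.29 for Vegfa and 0.30 for Shmt2. With the summed epithelial list as a covariate none was called either, at 0.50, 0.51, 3.23 and 0.47, with adjusted p from 0.0705 to 0.133 by edgeR. The part of epithelial RNA in these values was not tested beyond this fit.

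Of 18 ER targets of XBP1 and ATF6, such as chaperones and translocon subunits, 0 passed in any comparison by edgeR. By DESeq2 1 did, Sec61b in control cells, where 1052 of all 20256 genes passed by DESeq2. In knockout cells 16 of 18 had positive values at ZT12 against ZT0 with a median of 0.28, and 7 had an unadjusted p under 0.05, against a median of 0.042 and 5 in control cells. At that level stood 8.01% of all genes in knockout and 18.1% in control cells. The interaction had a median of 0.19 with 13 positive values, and 1 of 18 had an unadjusted p under 0.05, with a negative value, so that a difference between the genotypes was not established. The disulfide isomerase Pdia4 had 0.46 at ZT12 against ZT0 in knockout cells (SE 0.15, adjusted p 0.526 by edgeR). Hspa5, the main ER chaperone, named here after its values were seen, was at 3930 ± 899.7 and 3919 ± 598 CPM in control cells and at 3547 ± 1377 and 4684 ± 572 CPM in knockout cells at ZT0 and ZT12. Of 5 paralogs of the members, 1 passed in control cells by edgeR and 4 did not, where 1.73% of all genes passed. It was Trib2, which fell (-0.39, SE 0.10, adjusted p 0.0469 by edgeR), from 19.8 ± 1.77 to 15.1 ± 1.43 CPM (SD, n = 6 each). Its call was kept in 6 of 21 fits with 1 library left out, where the value ran from -0.42 to -0.35. It was lost without the 4 libraries (-0.28) and with the epithelial list as a covariate (-0.33, adjusted p 0.200 by edgeR).

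**Figure D5:**
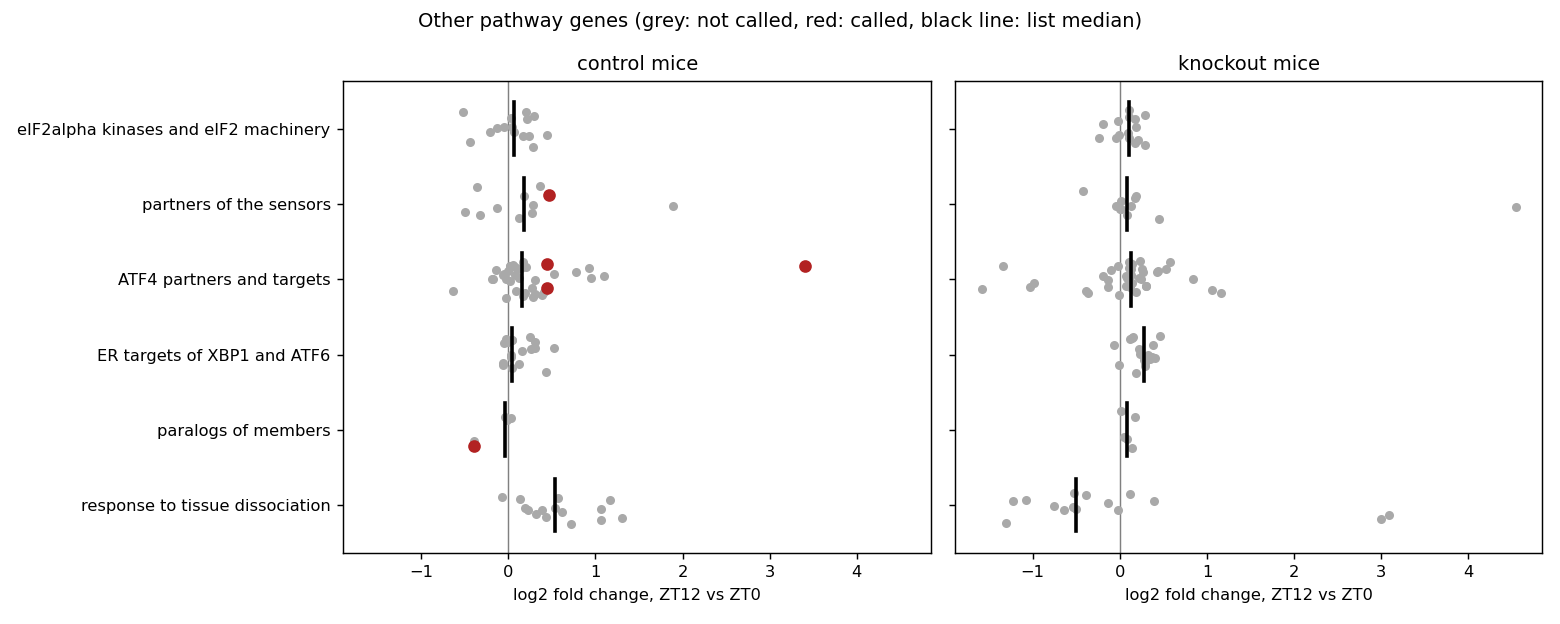
Log2 fold change from ZT0 to ZT12 (horizontal axis) of each gene in 6 lists (rows) in control and knockout mice, with genes past an adjusted p of 0.05 in red, others in grey and the list median as a black line. Red points are seen in control mice only, 4 to the right (Rtcb, Shmt2, Sars and Vegfa) and 1 to the left (Trib2), and the dissociation list has its median at 0.53 in control and at -0.50 in knockout mice.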

How the data were processed

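IgA+ PCs of 21 mice were profiled by bulk RNA-seq of poly-A RNA, as paired reads of Illumina libraries. The authors deposited raw read counts per gene with gene lengths and coordinates. Aligner, counting tool and strand setting are not given in the sources used here, and the submitters' processing notes name DESeq and DESeq2. The coordinates of all 10 members equalled those of GENCODE M21 (GRCm38). Genes with a total count of 10 or more were kept (20256 of 53801). Counts were scaled by TMM, so that CPM are relative to effective library size, and fitted with edgeR 4.0.16 (robust quasi-likelihood, 4 group means, R 4.3.3) with Benjamini-Hochberg adjustment at 0.05. Depth was 14471018 to 22785835 counts per library. Intervals are 95% and, for counts, cover counting error only.

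The methods of the study use DESeq2, and DESeq2 1.42.0 was run as an alternative, with other scalings, filters, covariates, a replicate block and each library left out. The members and gene lists were chosen with earlier results of these data known. Named genes outside the members were the called genes of each list, the 2 with the smallest p in each direction per comparison, and the 3 genes most like each member. Marker lists served as measured levels, and the summed dissociation and epithelial lists also as covariates in 2 of the alternatives. The fits were tested on simulated data. Likeness used log2 CPM with a prior count of 2, less the group mean, over genes with a mean log2 CPM above 1. Replicates are separate mice, and no 2 libraries of the same group agreed within sampling noise. Sequences come from RefSeq promoter windows (GRCm38.p6).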

Additional observations from a re-analysis of the deposited data

Results flagged for a closer look

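Within the 40 sets of values formed by 10 genes in 4 groups, 4 held a single library far from the others of its group by Dixon's criterion, where chance alone marks about 1 in 20 such sets. Ddit3 was 37.2 CPM in control ZT0 replicate 4, with the other 5 libraries between 26.9 and 30.2 CPM, and that library also had the highest dissociation list of its group (7186 CPM). Trib3 was 1.67 CPM (27 counts) in the same library, with the others between 0.589 and 0.899 CPM. Trib3 was 0.218 CPM (3 counts) in control ZT12 replicate 5, with the others between 1.22 and 1.81 CPM. Sesn2 was 14.0 CPM in knockout ZT0 replicate 1, with the others between 10.3 and 10.8 CPM.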

How the results depend on the processing

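Of the 10 members, 0 were called in any of the 5 comparisons under the settings tried, except that DESeq2 called 1 (Ddit3) in control mice. Under alternatives other than leaving out 1 library, 594 member values kept their direction and their side of the threshold, 1 became a call and 45 changed sign, and none of the 45 was a call. The adjusted p of Ddit3 in control mice by edgeR ran from 0.0507 to 0.326 with 1 library left out. The cause of the changes below was not tested.

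The number of all genes called in control mice was 350, and it was 1052 with DESeq2, 14 at an adjusted p under 0.01, 38 with the 2 control groups fitted alone, 183 with the replicate block, 0 with the immunoglobulin share as a covariate (1648 at an unadjusted p under 0.05), 12 without the libraries with an immunoglobulin share over 59%, 114 with the dissociation list and 33 with the epithelial list as a covariate. With 1 library left out it ran from 31 (control ZT0 replicate 2) to 944 (control ZT12 replicate 1), and it moved by over 1.5 times in 15 of 21 fits. In knockout mice the count was 0, and it was 47 with DESeq2, 1 without the count filter, 1 with the immunoglobulin share, 3 without the libraries over 59% and 0 to 1 with 1 library left out. For genotype at ZT0 it was 2, and it was 5 with DESeq2 and 4 with the gene length trend removed. For genotype at ZT12 it was 3, and it was 8 with DESeq2. For the interaction it was 0, and it was 4 with DESeq2, 1 with the length trend removed and 0 to 1 with 1 library left out. Raw library size as the only scaling shifted the median log2 fold change of all genes by -0.21 in control mice, 0.13 for genotype at ZT12 and 0.18 for the interaction, and in control mice 10.8% of its 446 calls were higher at ZT12 against 54.9% of 350.

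Uncalled member values changed sign as follows. With raw library size they were Ern1 (-0.13), Asns (-0.0091) and Sesn2 (-0.045) in control mice, Ern1 (-0.049) for genotype at ZT0, Ern1 (0.041), Trib3 (0.086) and Asns (0.083) at ZT12, and Ern1 (0.091) in the interaction. With the immunoglobulin share as a covariate they were Atf6 (0.076) and Eif2ak3 (0.036) in control mice, Ern1 (-0.0079), Atf6 (0.099), Atf4 (-0.052) and Ppp1r15a (-0.034) for genotype at ZT0, and Atf6 (-0.026) and Sesn2 (-0.15) in the interaction. Without the libraries over 59%, a choice made after seeing the data as were the 3 that follow, they were Atf6 (0.020) in control mice, Atf6 (-0.082) and Ddit3 (0.070) in knockout mice, Atf6 (0.099), Atf4 (-0.0069) and Ppp1r15a (-0.060) for genotype at ZT0, Atf6 (-0.0034), Asns (0.026) and Sesn2 (-0.11) at ZT12, and Atf6 (-0.10) and Sesn2 (-0.24) in the interaction. With the dissociation list they were Atf6 (-0.024), Atf4 (0.070), Ddit3 (0.21) and Ppp1r15a (0.077) in knockout mice, Atf6 (0.0021), Atf4 (-0.033) and Ppp1r15a (-0.051) for genotype at ZT0, and Chac1 (0.042), Ppp1r15a (0.012) and Sesn2 (-0.15) in the interaction. With the epithelial list they were Ern1 (0.024) in knockout mice, Ern1 (-0.00057) for genotype at ZT0 and Trib3 (0.0022) at ZT12, and with the length trend removed Atf6 (0.0088) at ZT0 and Trib3 (0.041) at ZT12.

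With 1 library left out, 16 member results crossed 0, none of them called. In knockout mice these were Ern1 (-0.050 to 0.017), Atf6 (-0.079 to 0.17), Ddit3 (-0.30 to 0.073) and Chac1 (-0.047 to 0.42). For genotype at ZT0 they were Ern1 (-0.020 to 0.024), Atf6 (-0.16 to 0.094), Atf4 (-0.011 to 0.19), Trib3 (-0.10 to 0.57), Chac1 (-0.33 to 0.13), Asns (-0.49 to 0.021), Ppp1r15a (-0.064 to 0.28) and Sesn2 (-0.013 to 0.15), at ZT12 Trib3 (-0.25 to 0.094), and in the interaction Trib3 (-0.62 to 0.058), Asns (-0.089 to 0.42) and Sesn2 (-0.056 to 0.14). Trib2 in knockout mice ran from -0.011 to 0.16.

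The replicate numbers were not taken to pair the mice. The correlation of same-numbered libraries exceeded 0.1 in 1 of 6, 1 of 4, 1 of 4 and 3 of 5 pairs of the 4 comparisons. For genotype at ZT12 it ran from -0.23 to 0.35 over the 5 pairs, so that shared handling of some pairs there was not settled. The columns of the count table come in successive runs, each with all 4 groups. The last run holds control ZT0 replicate 6, control ZT12 replicates 5 and 6, knockout ZT0 replicate 4 and knockout ZT12 replicates 3 to 5. The members summed to 1332 to 1559 CPM in it and to 1546 to 1866 CPM elsewhere. The Atf4 values from 310 to 358 CPM were all in it, and only control ZT12 replicate 5 was higher there, at 410 CPM. What the runs stand for is not given in the sources used here. Groupings of the libraries other than by replicate number were not tested. With the replicate block no member was called, and Atf4 (-0.038) and Ppp1r15a (-0.025) for genotype at ZT0 and Trib3 (0.13) at ZT12 changed sign.

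Depth limits Trib3, at 3 to 31 counts per library. The next lowest member, Sesn2, had 98 to 345 counts.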
